A study of Drosophila melanogaster with 6 samples.

Results

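The genes described here encode the receptor for the steroid hormone ecdysone and the transcription factors that respond to it. The members and the gene lists used further on were chosen with earlier results of these data known. The rule for members went by name and used no measured value: EcR, usp, br, Eip74EF, Eip75B, Hr3, Hr4, Hr39, ftz-f1 and Blimp-1. Of these 10 genes, 8 had at least 1 probe set that named them alone, out of 11982 genes measured, and together they had 18 of the 18769 probe sets that are not controls. Eip74EF and Eip75B were not analysed here. No filter on low values was applied, so the 8 genes are all those with a listed probe set that named them alone. In the RefSeq table of Release 6, usp, br and Hr4 lie on chromosome X, Hr39 on 2L, EcR and Hr3 on 2R, and ftz-f1 and Blimp-1 on 3L.

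Ecdysone is released in pulses, and each pulse drives a moult or the onset of metamorphosis. The hormone binds EcR, a nuclear receptor that acts as a dimer with usp, the fly relative of the retinoid X receptor. The bound dimer turns on early genes that encode transcription factors, among them br, and these switch on or repress later nuclear receptor genes such as Hr3, Hr4 and ftz-f1. Blimp-1 encodes a hormone-inducible repressor that delays ftz-f1 until the pulse has passed. In larvae these factors set the timing of moulting, and they act on cuticle genes in the epidermis and on hormone synthesis in the prothoracic gland.

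The mutant larvae carried dKDM4A KG04636 over ∆dKDM4A, an insertion allele over a deletion of Kdm4A, which encodes a histone lysine demethylase. The control larvae carried dKDM4A precise KG06436 over dKDM4A precise NP0618, which the labels also call wild type. The insertion is numbered KG04636 in the mutant's label and KG06436 in the control's, and the labels do not say whether both names mean the same insertion. Both groups were 1st instar larvae of Drosophila melanogaster raised at 25 °C and collected about 48 after egg laying, a time whose unit the labels leave out. Each group had 3 arrays, labelled biological replicates 1 to 3, and each array held total RNA pooled from 200 whole larvae. A pool of whole larvae cannot separate fewer cells of a type from less RNA per cell. The labels do not say that the pools came from separate cultures, so the p-values below measure the spread between these pools. Precision is limited throughout by having 3 arrays a group. A comparison between array numbers rests on fewer still, 1 mutant and 1 control array for each number.

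Values are log2 expression values made with RMA, and the array medians lay between 5.30 and 5.38. The targeted gene Kdm4A, which checks the labels, averaged 3.38 ± 0.08 (SD, n = 3) in mutant arrays against 5.30 ± 0.14 (SD, n = 3) in control arrays. Markers of the third instar, the salivary glue genes and the storage protein gene Lsp2 among them, had mean values from 4.15 to 4.40 over their 8 measured members in the 6 arrays, below the array medians. Arrays with the same number deviated together from their group means, with correlations over genes of 0.684, 0.152 and 0.756 for numbers 1, 2 and 3. The genes were therefore compared in both ways the labels allow, between genotypes and between array numbers. The numbers are names without an order.

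Between mutant and control, 0 of the 8 genes passed limma at an adjusted p under 0.05, and 2 did at an unadjusted p under 0.05. Over all genes tested, 0.159% passed the adjusted threshold and 5.27% the unadjusted one. The mean was lower in the mutant for 5 of the 8 genes and higher for 3. Their median log2 difference was -0.12, against -0.01 over all genes. The smallest p values belonged to Hr3 and Blimp-1, the only genes of the 8 whose mutant and control values did not overlap. Groups without overlap were found for 10.3% of all genes. With the replicate number as a block 0.818% of all genes passed, and still 0 of the 8 genes did, with 3 at an unadjusted p under 0.05 against 11.2% of all genes.

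**Figure D1:**
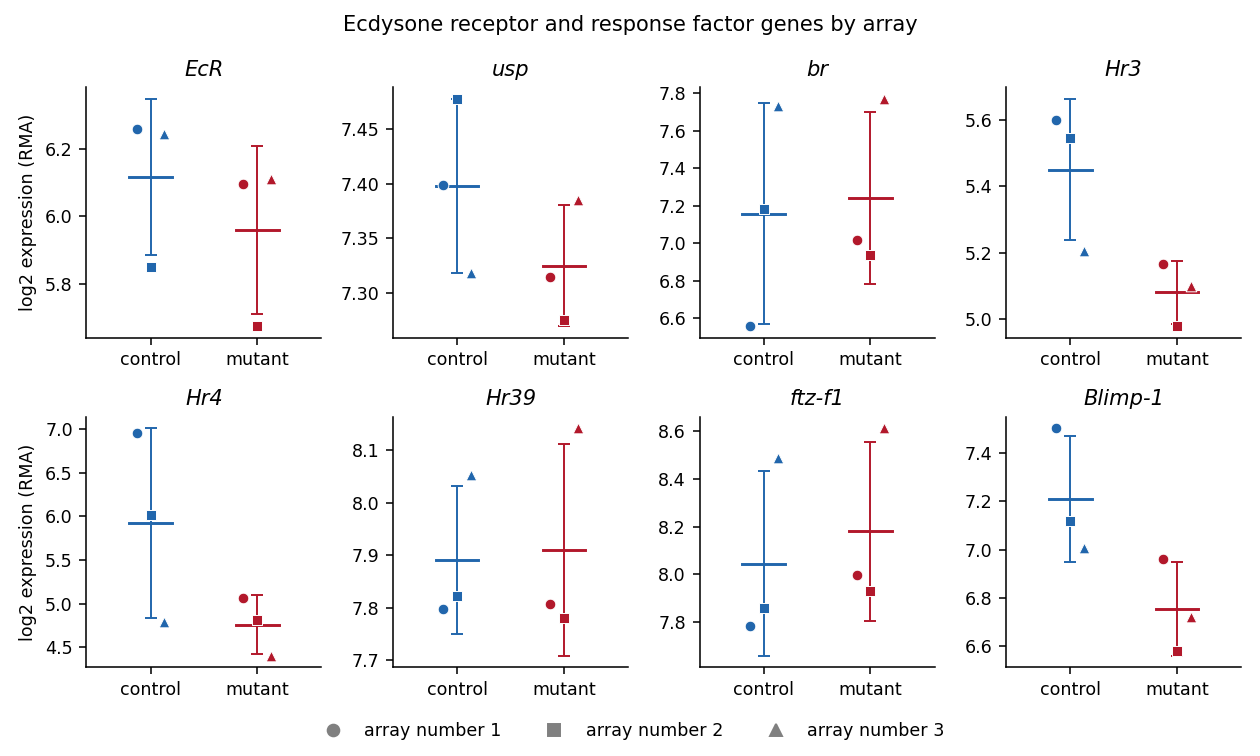
Log2 expression (RMA) of the 8 genes in each array, by genotype. Symbols give the array number, horizontal bars the mean and error bars the SD of 3 arrays, and each panel has its own vertical scale that does not start at 0. Hr3 and Blimp-1 show groups without overlap, and in br, Hr39 and ftz-f1 both arrays numbered 3 lie highest.

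The 2 receptor genes differed little between the genotypes. EcR had values of 6.10, 5.67 and 6.11 in mutant arrays 1, 2 and 3, and 6.26, 5.85 and 6.24 in the control arrays of the same numbers. In both genotypes the array numbered 2 was the lowest, and the groups overlapped. EcR was lower in the mutant in 3 of 3 pairs of arrays, with differences from -0.18 to -0.13, a direction shared by all 3 pairs in 19.2% of all genes. The log2 difference was -0.16 (SE 0.17, 95% interval -0.56 to 0.25, limma adjusted p = 0.998, n = 3 per group). With the replicate block the SE was 0.08 (95% interval -0.35 to 0.04, limma adjusted p = 0.545). Without the block, the difference was -0.01 without mutant replicate 2 and -0.29 without control replicate 2. Each of these fits leaves a low array numbered 2 in only 1 of the groups. With array weights the difference was 0.02 (adjusted p = 0.979).

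For usp, the partner of EcR, the values were 7.31, 7.28 and 7.38 in the mutant and 7.40, 7.48 and 7.32 in the control. All 6 arrays lay between 7.28 and 7.48, and the groups overlapped. The difference was -0.07 (SE 0.09, 95% interval -0.28 to 0.13, limma adjusted p = 0.998, n = 3 per group). Among the 8 genes, usp had the narrowest interval.

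The early gene br encodes zinc finger proteins of the broad complex that direct the response in each tissue. Its brightest probe set read 7.02, 6.94 and 7.77 in the mutant and 6.56, 7.18 and 7.73 in the control. Both arrays numbered 3 were high, the control numbered 1 was lowest, and the groups overlapped. The log2 difference between the genotypes was 0.08 (SE 0.34, 95% interval -0.74 to 0.91, limma adjusted p = 0.998, n = 3 per group). The pairs of arrays did not share a direction, with differences of 0.46, -0.25 and 0.04 for numbers 1, 2 and 3.

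Of the later nuclear receptors, Hr3, a relative of the vertebrate ROR receptors that activates ftz-f1, was lower in every mutant array than in any control array. It read 5.17, 4.98 and 5.10 in the mutant and 5.60, 5.54 and 5.21 in the control. The gap between the groups was narrow, since mutant 1 and control 3 lay next to each other. The log2 difference was -0.37 (SE 0.13, 95% interval -0.68 to -0.06), or 1.29-fold in the array values, and did not pass over all genes (limma adjusted p = 0.790, n = 3 per group; 0.318 with the replicate block).

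The widest difference between the genotypes was that of Hr4, a nuclear receptor that represses early genes at the end of a pulse and restrains hormone synthesis in the prothoracic gland. Hr4 read 5.06, 4.82 and 4.40 in the mutant and 6.96, 6.02 and 4.79 in the control. Within each array number the mutant was lower, with differences of -1.90, -1.20 and -0.40, but control 3 lay below mutant arrays 1 and 2, so the groups overlapped. The SD was 0.34 in the mutant and 1.09 in the control. The mean difference was -1.16 (SE 0.52, 95% interval -2.41 to 0.08, n = 3 per group), or 2.24-fold, with a limma adjusted p of 0.966, and 0.185 with the replicate block. Without control replicate 1 the difference was -0.65 (adjusted p = 0.997). The percentile of Hr4 among all genes of an array lay between 25.3 and 31.7 in the mutant and between 29.7 and 53.4 in the control, so the mutant values were among the dimmer genes.

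Hr39, a nuclear receptor related to ftz-f1, did not differ between the genotypes beyond the spread of the arrays. Its values were 7.81, 7.78 and 8.14 in the mutant and 7.80, 7.82 and 8.05 in the control. The arrays numbered 3 were highest in both genotypes, and the groups overlapped. The difference was 0.02 (SE 0.13, 95% interval -0.30 to 0.34, limma adjusted p = 0.998, n = 3 per group).

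The competence factor gene ftz-f1 encodes an orphan nuclear receptor that readies tissues for the next pulse. Its brightest probe set read 8.00, 7.93 and 8.61 in the mutant and 7.78, 7.86 and 8.49 in the control. Arrays numbered 3 stood above the others in both genotypes, and the groups overlapped. The mutant was higher in 3 of 3 pairs of arrays, by 0.07 to 0.21, as in 14.5% of all genes, with a mean difference of 0.14 (SE 0.25, 95% interval -0.48 to 0.75, limma adjusted p = 0.998, n = 3 per group). Its other probe set, described further on, was lower on average in the mutant.

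Blimp-1, the repressor of ftz-f1, read 6.96, 6.58 and 6.72 in the mutant and 7.50, 7.12 and 7.01 in the control. All mutant values lay below all control values, with mutant 1 and control 3 close together. The difference was -0.54 within number 1, -0.54 within number 2 and -0.29 within number 3. The mean difference was -0.46 (SE 0.16, 95% interval -0.85 to -0.06), or 1.37-fold in the array values, and did not pass over all genes (limma adjusted p = 0.821, n = 3 per group; 0.132 with the replicate block).

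**Figure D2:**
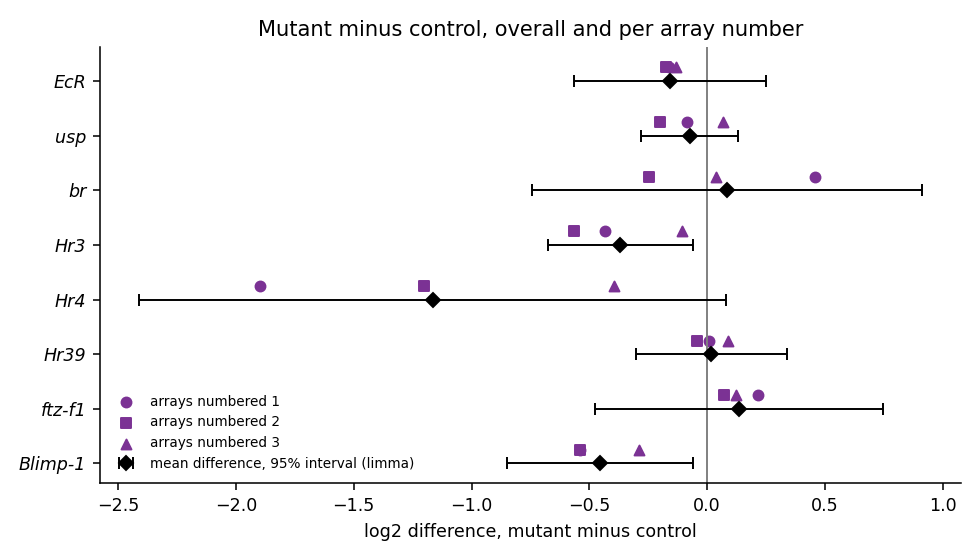
Log2 difference between mutant and control for the 8 genes. Black diamonds and bars give the limma mean difference and its 95% interval, and coloured symbols give the difference within each array number. The intervals of Hr3 and Blimp-1 lie below 0 before adjustment over all genes, and the 3 pair differences of Hr4 spread from -1.90 to -0.40.

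Between array numbers, br and ftz-f1 were the genes of the 8 that passed. With genotype in the limma fit, both were higher in arrays numbered 3 than in arrays numbered 1. Each number had only 2 arrays, 1 of each genotype. Of all genes, 8.25% passed in this contrast, 4.91% higher and 3.35% lower, so many genes shared such a difference. At an unadjusted p under 0.05 there were 5 of the 8 genes, against 26.4% of all genes. The pair of arrays numbered 3 lay wholly on one side of the pair numbered 1 in 4 of the 8 genes, br, Hr4, Hr39 and ftz-f1, and in 55.0% of all genes. Between numbers 2 and 1, 0 of the 8 genes and 0 of all genes passed, with 2 of the 8 and 11.7% of all genes at an unadjusted p under 0.05. Between numbers 3 and 2, 0 of the 8 genes passed by limma against 0.492% of all genes, with 4 of the 8 and 16.8% of all genes at an unadjusted p under 0.05. The 3 contrasts share arrays and are not separate evidence.

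For br the difference between arrays numbered 3 and 1 was 0.96 (SE 0.18, 95% interval 0.52 to 1.41, limma adjusted p = 0.0402), or 1.95-fold, with 0.75 in the mutant and 1.17 in the control. For ftz-f1 it was 0.66 (SE 0.10, 95% interval 0.41 to 0.91, limma adjusted p = 0.0304), or 1.58-fold, with 0.61 in the mutant and 0.70 in the control. Both calls were lost without mutant replicate 3, without control replicate 1 and without control replicate 3. Each of these fits leaves a single array for that number, and far fewer of all genes passed in them. With any 1 array left out the differences stayed between 0.68 and 1.24 for br and between 0.60 and 0.72 for ftz-f1. The adjusted p of br was 0.169 without mutant replicate 3, 0.160 without control replicate 1 and 0.222 without control replicate 3. For ftz-f1 the same fits gave 0.152, 0.152 and 0.201. Neither gene passed in the limma fit without the genotype term (adjusted p = 0.0646 for br and 0.0609 for ftz-f1), with the same differences. In that fit 0 of all genes passed. With all probe sets of a gene averaged, the difference of br was 0.39 (adjusted p = 0.118) and that of ftz-f1 was -0.21 (adjusted p = 0.529).

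Hr4 ran the other way, with arrays numbered 3 below arrays numbered 1 (-0.66 in the mutant and -2.17 in the control). Its mean difference of -1.42 (SE 0.33, 95% interval -2.25 to -0.58) was the largest of the 8 genes in size and missed the threshold (limma adjusted p = 0.0638). Without mutant replicate 1 the difference was -1.96 and passed (adjusted p = 0.0210). Without control replicate 1 it was -0.87 (adjusted p = 0.237) and without control replicate 3 it was -0.84 (adjusted p = 0.239).

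The remaining 5 genes did not pass between arrays numbered 3 and 1. Blimp-1 differed by -0.37 (SE 0.11, limma adjusted p = 0.112) and was lower in both genotypes. Hr39 differed by 0.30 (SE 0.10, adjusted p = 0.134), and Hr3 by -0.23 (SE 0.14, adjusted p = 0.363). Without control replicate 3 the difference of Hr3 was -0.03 and that of Blimp-1 was -0.24, and without mutant replicate 3 that of Hr3 was -0.43. The receptor genes differed little between these numbers, with 95% intervals of -0.24 to 0.24 for EcR and -0.28 to 0.27 for usp. EcR was instead lower in arrays numbered 2 than in those numbered 1, with -0.42 in the mutant, -0.41 in the control and a mean of -0.41 (SE 0.10) that did not pass (limma adjusted p = 0.418).

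**Figure D3:**
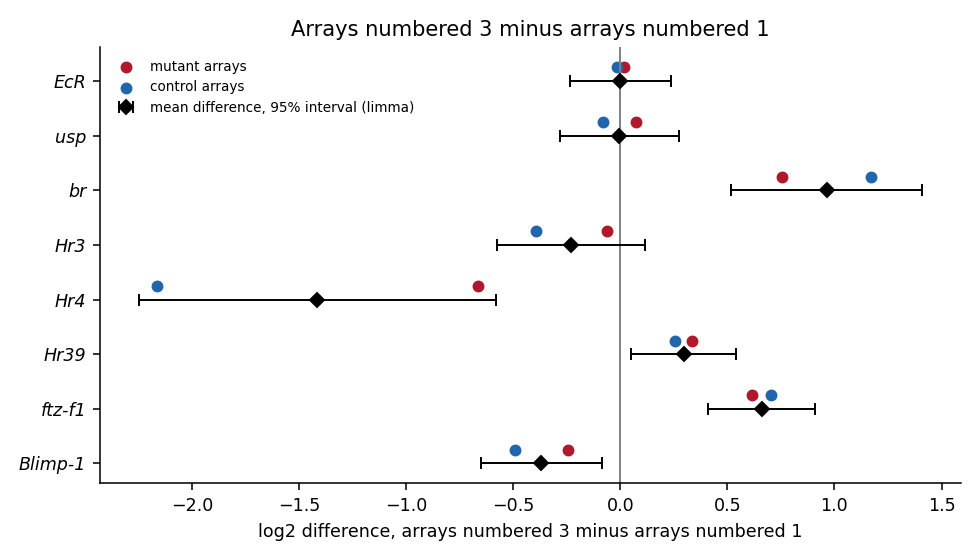
Log2 difference between arrays numbered 3 and arrays numbered 1 for the 8 genes. Black diamonds and bars give the limma mean difference and its 95% interval, and coloured points give the difference within the mutant and within the control. br and ftz-f1 lie above 0 in both genotypes, Hr4 and Blimp-1 lie below 0 in both, and EcR and usp lie near 0.

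Other measures moved with the array numbers. The actin controls, whose 3′ minus 5′ gap grows as RNA degrades, had a mean gap of 2.37 for number 1, 1.68 for number 2 and 1.62 for number 3. Over all genes, 6616 of 11982 had higher means in arrays numbered 3 than in arrays numbered 1. Of the neuron and glia markers 8 of 8 measured members did, and limma called 6. Their mean value in the mutant was 7.70 for number 1 and 8.35 for number 3, and in the control 7.39 and 8.29. Epidermis and cuticle markers had lower means in 7 of 8 measured members, of which limma called 6 lower, with means in the mutant of 7.53 for number 1 and 6.16 for number 3, and in the control of 8.01 and 6.49. Of the muscle markers limma called 0 of 7, and 1 had an unadjusted p under 0.05. Of the fat body markers limma called 1 of 8 higher, and of the midgut markers 1 of 8 lower. Among all genes limma called 4.91% higher and 3.35% lower between these numbers. Between mutant and control limma called 0 members of each of these lists. By sign alone, epidermis and cuticle markers were lower in the mutant in 7 of 8 members (median -0.31) and midgut markers in 7 of 8 (median -0.17), while neuron and glia markers were higher in 7 of 8 (median 0.13), muscle markers in 7 of 7 (median 0.10) and fat body markers in 5 of 8 (median 0.01). The part of RNA quality and of these tissues in the values of br, ftz-f1 and Hr4, or in the differences between the genotypes, was not tested.

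For 4 of the 8 genes more than 1 probe set was measured, and these can report different transcripts of a gene. Of the 18 probe sets 0 passed between mutant and control in a limma fit over all probe sets, where 0.186% passed. Between arrays numbered 3 and 1, 2 of the 18 passed against 6.10% of all probe sets, the brightest ones of br and ftz-f1. The probe sets of a gene did not all follow the brightest one.

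The 2 probe sets of ftz-f1 differed in direction between array numbers. Probe set 1624520_a_at read 7.68, 7.17 and 7.23 in the mutant and 8.86, 6.89 and 7.18 in the control, with the arrays numbered 1 highest in both genotypes and control 1 far above the rest. Its difference between arrays numbered 3 and 1 was -1.07 (SE 0.33, 95% interval -1.89 to -0.25), which did not pass (limma adjusted p = 0.132), against 0.66 for probe set 1640821_at. The sources used here do not say which transcripts each of them detects.

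Hr4 had 3 probe sets, and all had lower means in the mutant. Probe set 1632066_at read 3.72, 3.99 and 3.86 in the mutant and 4.21, 4.08 and 4.06 in the control, a difference of -0.26 (SE 0.10, limma adjusted p = 0.922). Probe set 1641392_at read 4.42, 4.37 and 4.39 in the mutant and 4.62, 4.59 and 4.52 in the control, a difference of -0.18 (SE 0.08, limma adjusted p = 0.995). In both of these the groups did not overlap, which held for 9.86% of all probe sets. Both lay below the array medians, the first of them near the lower quartile of the arrays, which was 3.70 to 3.80, and neither showed the wide spread of the brightest probe set, 1632733_at. Their differences between arrays numbered 3 and 1 were 0.00 and -0.07, against -1.42 for the brightest.

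Of the 5 probe sets of br, 3 had both arrays numbered 3 above both arrays numbered 1, while 50.5% of all probe sets had these pairs apart in either direction. Besides the brightest these were 1626996_s_at, with a difference of 0.54 (SE 0.13, limma adjusted p = 0.0746), and 1629683_at, with 0.36 (SE 0.11, adjusted p = 0.141). Probe set 1629683_at was dim, at 3.58 in mutant 1 and 3.50 in mutant 2, below the lower quartiles of those arrays. The other two, 1636931_at and 1637312_a_at, differed by 0.04 and 0.05, and the latter lay between 2.88 and 3.07 in all 6 arrays, below their lower quartiles. Hr39 had 4 probe sets with differences from 0.05 to 0.30 between these numbers and from -0.05 to 0.08 between the genotypes. Both the 0.05 and the 0.08 came from 1632845_at, which lay between 2.83 and 3.25, below the lower quartiles of the arrays.

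**Figure D4:**
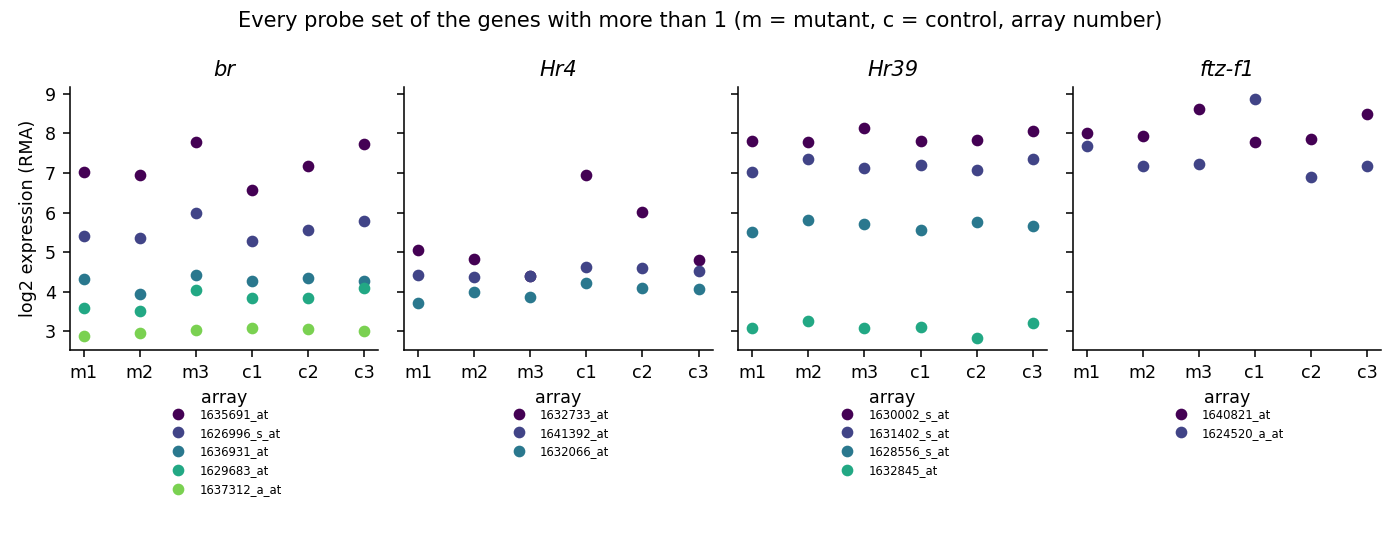
Log2 expression (RMA) of every probe set of br, Hr4, Hr39 and ftz-f1 in the 6 arrays. Colours mark probe sets, and m and c with a number stand for mutant and control arrays. The brightest probe set of Hr4 ranges from 4.40 to 6.96 while the others lie between 3.72 and 4.62. The 2 probe sets of ftz-f1 are in reverse order only in control 1.

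The rest of the hormone pathway was followed from the ligand to its targets. Genes of ecdysone synthesis and turnover had 0 of 18 members past limma's threshold between mutant and control. At an unadjusted p under 0.05 there was 1, against 5.27% of all genes. That gene was spok, a cytochrome P450 gene of the prothoracic gland, with a difference of 0.59 (SE 0.16, limma adjusted p = 0.547). The median difference of the list was 0.01, against -0.01 over all genes. The contrast of arrays numbered 3 and 1 had 1 of 18 called lower and 0 higher, against 3.35% and 4.91% of all genes. The gene called was Cyp18a1, whose enzyme inactivates ecdysone, with a log2 difference of -0.49 (SE 0.10, limma adjusted p = 0.0469). By sign alone 5 of 18 were lower and 13 higher, against 5366 and 6616 of all 11982 genes. Cyp18a1 was not called with the mean of probe sets, without mutant replicate 2 or without control replicate 2.

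Upstream hormone inputs had 0 of 10 measured members called between the genotypes by limma, and 0 had an unadjusted p under 0.05. In arrays numbered 3 against 1, 8 of 10 had higher means, and so did 6616 of all 11982 genes. At an unadjusted p under 0.05 by limma there were 8 of 10, against 26.4% of all genes. Limma called 2 of 10 higher, against 4.91% of all genes. These were the insulin receptor gene InR with 0.61 (SE 0.12, limma adjusted p = 0.0465) and DopEcR, a membrane receptor for dopamine and ecdysteroids, with 0.55 (SE 0.10, adjusted p = 0.0411). The importer gene Oatp74D, needed to bring ecdysone into cells, differed by 0.53 (SE 0.13) and did not pass (adjusted p = 0.0749). The median of this list was 0.41 between these numbers, against 0.03 over all genes.

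Cofactors of the receptor and juvenile hormone factors had 0 of 15 called between the genotypes by limma and 0 at an unadjusted p under 0.05, and the coactivator tai differed by -0.18 (SE 0.17, adjusted p = 0.998). For arrays numbered 3 against 1, 14 of 15 had higher means, and so did 6616 of all 11982 genes. At an unadjusted p under 0.05 by limma there were 8 of 15, against 26.4% of all genes. Limma called 1 of 15 higher, against 4.91% of all genes. That gene was Utx, a histone demethylase gene, with 0.57 (SE 0.11, limma adjusted p = 0.0402). Kr-h1, the zinc finger factor induced by juvenile hormone, differed by 0.50 (SE 0.11) and did not pass (adjusted p = 0.0610). The list's median between these numbers was 0.28.

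Other nuclear receptors stayed without a call in either comparison. Of 14 measured, 0 passed by limma between the genotypes and 0 had an unadjusted p under 0.05, and Eip78C, another hormone-inducible receptor, had the smallest p with a difference of -0.35 (SE 0.19, adjusted p = 0.998). Comparing arrays numbered 3 and 1, 0 of 14 passed, with 1 at an unadjusted p under 0.05, ERR, an orphan receptor of metabolism, at -0.49 (SE 0.17, adjusted p = 0.150). Moulting peptides and their receptors likewise had 0 of 8 called by limma between the genotypes and 0 of 8 between these numbers, with 1 and 2 at an unadjusted p under 0.05. Such an unadjusted p was found in 5.27% and 26.4% of all genes in these comparisons. The eclosion hormone gene Eh differed by -0.24 between the genotypes (SE 0.10, adjusted p = 0.894).

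Other hormone-inducible genes were lower in the mutant in 13 of 16 measured members, with a median difference of -0.15. Limma called 0, with 3 at an unadjusted p under 0.05, against 5.27% of all genes. These were ImpE3 (-0.60, SE 0.19, adjusted p = 0.700), vri (-0.82, SE 0.27, adjusted p = 0.751) and ImpL2 (-0.23, SE 0.09, adjusted p = 0.894). With the replicate block limma again called 0 (lowest adjusted p = 0.0564). In that fit 6 of 16 had an unadjusted p under 0.05, against 11.2% of all genes and 3 of 8 epidermis and cuticle markers. Over all genes, 6204 of 11982 were lower in the mutant, and so were 7 of 8 epidermis and cuticle markers and 7 of 8 midgut markers. In vri, a clock transcription factor gene, control 3 at 6.43 lay below mutant 1 at 6.51, and the mutant was the lower array in 3 of 3 pairs.

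Between arrays numbered 3 and 1, limma called 5 of these 16 genes lower and 0 higher, against 3.35% and 4.91% of all genes. By sign alone 11 were lower and 5 higher, against 5366 and 6616 of all 11982 genes. ImpE2, which encodes a secreted protein of imaginal discs, read 8.41, 7.18 and 5.93 in the mutant and 9.44, 8.46 and 6.07 in the control, a difference of -2.93 (SE 0.27, limma adjusted p = 0.0155). ImpE1 differed by -2.44 (SE 0.21, adjusted p = 0.0147) and ImpL1 by -2.56 (SE 0.29, adjusted p = 0.0193), and these were also lower in arrays numbered 3 than in arrays numbered 2 (adjusted p = 0.0408 and 0.0465). The clock gene vri differed by -0.77 (SE 0.14, adjusted p = 0.0410) and the cuticle gene Edg78E by -0.58 (SE 0.11, adjusted p = 0.0407). In ImpE1, ImpE2, ImpL1 and vri the mutant was below the control within every array number, as in 19.2% of all genes. By their brightest probe sets, these genes and Hr4 were lower, and br and ftz-f1 higher, in arrays numbered 3 than in arrays numbered 1, though Hr4 did not pass. The other probe set of ftz-f1 differed by -1.07 and those of Hr4 by -0.001 and -0.07, while those of br differed by 0.04 to 0.54. Of the 9 genes of these pathway lists called between arrays numbered 3 and 1, ImpE1, ImpE2 and ImpL1 also passed without mutant replicate 1, without mutant replicate 3 and without control replicate 3, and ImpE1 and ImpL1 passed without control replicate 1. The other genes lost the call in each of these fits, which leave a single array for that number. In all of these fits but the one without mutant replicate 1, far fewer of all genes passed. Without the genotype term 0 of the 9 genes passed, and 0 of all genes did. With quantile normalization vri, Edg78E and InR were not called.

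**Figure D5:**
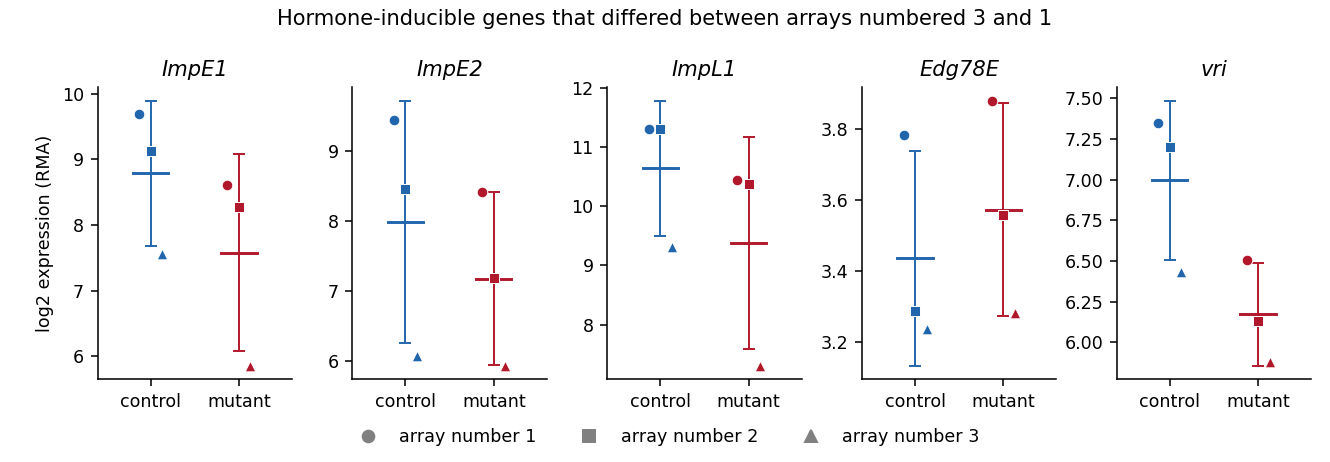
Log2 expression (RMA) of the 5 hormone-inducible genes that passed between arrays numbered 3 and 1. Symbols give the array number, horizontal bars the mean and error bars the SD of 3 arrays, and each panel has its own vertical scale that does not start at 0. Both arrays numbered 3 lie lowest within their genotype in all 5 genes.

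The genes whose values ran most like those of br and ftz-f1 over the 6 arrays were found by Pearson correlation among all other genes. For br these were CG15141 (r = 0.997), tsh (r = 0.997) and lov (r = 0.996). For ftz-f1 they were p (r = 0.995), tara (r = 0.994) and loaf (r = 0.994). The arrays share their numbers and their RNA pools, 6 points are few, and the genes were picked as the highest of all genes, so these values describe the arrays only. The gene lov, which like br encodes a protein with a BTB domain, read 6.79, 6.74 and 7.56 in the mutant and 6.30, 6.93 and 7.42 in the control.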

How the data were processed

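The authors deposited log2 expression values per probe set for 6 arrays. Per the submitters' processing notes these come from RMA, with no version stated, and the range of the values shows the log2 scale. Because RMA evens out the distributions of the arrays, shifts common to most genes cannot be seen. Of 18952 probe sets, 183 controls were left out. The platform's probe table of 2016 gives 1 gene for 13647 probe sets, several for 402, and does not list 4720. The brightest probe set on average stood for each gene, which gave 11982 genes, and 11893 (99.3%) matched the RefSeq table of Release 6, used for names and arms.

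Genotype was tested with limma 3.58.1 in R 4.3.3 (lmFit, eBayes, two-sided, Benjamini-Hochberg adjustment over all genes). Array numbers were tested in a fit with genotype as a term. Alternatives were other scalings, probe set summaries, filters, priors and weights, the replicate block, and arrays left out. Pairing by number was taken from the titles and from the correlations of same-numbered arrays. The fits were tested on simulated data. Members, gene lists and tests were chosen with earlier results of these data known. The rule for names took every member, Kdm4A, called genes of a list and up to 4 others with the smallest p in it, and the 3 genes most correlated with each member called between numbers. Plots were drawn with matplotlib 3.10.9.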

Additional observations from a re-analysis of the deposited data

How the results depend on the processing

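Between mutant and control, the count of 0 genes called among the 8 was 0 under all 14 alternatives by limma (2 at an unadjusted p under 0.05 in the original setting), the replicate block with 0 and the arrays left out in turn with 0 to 0 included, and the pathway lists also gave 0 throughout. The direction of usp, Hr3, Hr4 and Blimp-1 held in every alternative run. The other differences changed sign, none of them called: EcR with array weights (0.016), br with the mean of probe sets (-0.046), with array weights (-0.0057), without both arrays numbered 1 (-0.10) and with single arrays left out (-0.22 to 0.37), Hr39 with single arrays left out (-0.10 to 0.10), and ftz-f1 with the mean of probe sets (-0.074) and with single arrays left out (-0.080 to 0.36). Between arrays numbered 3 and 1, the 2 genes called became 0 with the mean of probe sets and 0 without the genotype term, and 0 to 3 with single arrays left out. The 9 called genes of the pathway lists became 0 without the genotype term and 2 to 11 with single arrays left out. EcR changed sign with quantile normalization (-0.035), median centring (-0.024) and single arrays left out (-0.018 to 0.019), usp with single arrays left out (-0.11 to 0.10), and ftz-f1 with the mean of probe sets (-0.21), which joins the 2 probe sets that ran in opposite directions. Between arrays numbered 3 and 2, ftz-f1 was called with the trended robust prior, 1 gene against 0. Leaving out an array leaves fewer residual degrees of freedom and a single array for that number, whose spread is taken to be like the others'. The groups then also hold unequal sets of array numbers, and the main genotype fit has no term for the number. For the other changes the cause was not tested. Hr3 and Hr4 lie below the level kept by the filter on dim genes and have no value there. Dim probe sets, such as 1632066_at of Hr4 near the lower quartile, limit what the arrays can show.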
